A study of Mus musculus with 17 samples.

Results

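The genes described here encode core proteins and regulators of pre-mRNA splicing. They were chosen by symbol: every gene with a probe set carrying a single symbol that starts with Srsf, Snrp, Sf3a, Sf3b or Hnrnp was a member, and each member was represented by its probe set with the highest mean over all 17 arrays. The rule gave 47 genes of the 18193 with a named probe set, drawn from 139 probe sets of 34945. They comprise 10 SR protein genes (Srsf), 9 snRNP protein genes (Snrp), 9 genes for subunits of the SF3A and SF3B complexes, and 19 hnRNP protein genes (Hnrnp). Of the 47 genes, 35 had several probe sets, and 3 (Snrpn, Srsf12 and Hnrnpl) did not reach a mean intensity of 32, against a median of 910 for all 47.

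Splicing removes introns from newly made transcripts and is carried out by the spliceosome, which is built from small nuclear RNAs bound to proteins (snRNPs). In most snRNPs a ring of Sm proteins encircles the RNA. The SF3A and SF3B complexes belong to the U2 snRNP, which recognises the branch point of the intron. SR proteins bind exons and mostly promote the use of nearby splice sites, whereas hnRNP proteins coat nascent transcripts and often repress exons. Alternative splicing by members of both families is well known in blood cells, for example in the control of CD45 isoforms in lymphocytes by Hnrnpll.

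The study sorted progenitor fractions of adult mouse bone marrow (animals aged 10 to 14 weeks) and profiled them on 17 Affymetrix 3-prime expression arrays; no treatment or mutation is given for any fraction. The MkP fraction (Lin-Sca1-Kit+Itga2b+Slamf1+, 3 arrays) holds megakaryocyte progenitors, and the preCFUE fraction (Lin-Sca1-Kit+Itga2b-FcgRlowSlamf1+Enghigh, 3 arrays) holds early erythroid progenitors. The preMegE fraction (Lin-Sca1-Kit+Itga2b-FcgRlowSlamf1+Englow, 5 arrays) holds progenitors upstream of both. Common lymphoid progenitors make up the CLP fraction (3 arrays, gate Lin-Sca1lowKitlowIL7r+Flk2+), and the preGM fraction (Lin-Sca1-Kit+Itga2b-FcgRlowSlamf1-Englow, 3 arrays) holds progenitors of granulocytes and monocytes. The gates stand in the sample titles; a free-text description repeated for every array names a different gate and was not used. The short fraction names are those of the study's scheme as generally known, with preMegE also in the design text. Whether the arrays of 1 fraction stem from different animals is not stated in the labels, and p-values therefore measure array-to-array spread that may be purely technical.

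Values are RMA intensities (background-corrected, summarised probe signals on a linear scale with no unit), with means ± SD over 3 arrays, or over 5 for preMegE. Differences between fractions are on the scale of log2(intensity + 16), with ± their SE, first-named fraction minus second-named. A gene is called where limma's moderated test gave a p under 0.05 after Benjamini-Hochberg adjustment over all 18193 genes. In these bulk samples, a smaller share of expressing cells and less RNA per cell cannot be told apart. Affymetrix marks probe sets that match transcripts of several genes or sequences with the endings _s_at and _x_at. Among the 47 members, 9 were represented by a probe set of the first kind and 3 by one of the second, so their signal can include close relatives.

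Arrays differed in their overall distribution. Array medians ran from 16.04 to 19.07, and the ratio of 3-prime to 5-prime signal from the Gapdh and Actb control probe sets, a measure of how far RNA was shortened before labelling, ran from 2.96 to 5.09 on the log2 scale. CLP replicates 1 and 3 had the highest ratios (5.09 and 4.64), and CLP replicate 2 had 3.18. CLP replicate 2 also correlated better with the preGM arrays (mean r over all genes 0.961) than with the other CLP arrays (0.949). The sums of markers nevertheless followed the sort, except that those of preMegE markers overlapped between preMegE and preCFUE. Some of the markers, such as Il7r and Itga2b, also belong to the gates. Genes typical of megakaryocytes summed to 11004 to 11987 in MkP and to at most 673 elsewhere, and lymphoid genes to 10578 to 17669 in CLP, against at most 3562 elsewhere. Genes typical of red cell progenitors summed to 5668 to 6641 in preCFUE and to at most 5181 elsewhere, and granulocyte genes to 14683 to 16164 in preGM, against at most 962 elsewhere. Genes typical of preMegE summed to 5095 to 7624 in that fraction, with 4836 to 5543 in preCFUE. Among markers of other cells, the 5 neutrophil genes varied most within a fraction, with sums of 108 to 1354 in MkP, 192 to 377 in preCFUE, 87.0 to 1526 in preMegE, 72.3 to 184 in CLP and 203 to 1504 in preGM.

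Promoters are shown for some snRNP genes that carry the main pattern, and for Srsf10, the member with the largest fall in MkP against preCFUE. Each is the 200 bases upstream of the RefSeq start (build GRCm38.p6, on the strand of the gene). Snrpa1 and Snrpb2 were left out, and Snrpb had no such window in the RefSeq table. Capitals mark matches on either strand to any of 7 motifs: the CCAAT box, the GC box GGGCGG, the ETS-type letters CCGGAAG, the E-box CACGTG, the cAMP-response letters TGACGTCA, the TATA box TATAAA and the GATA-type letters AGATAA.
Snrpd3, chr10:75517842-75518041, plus strand: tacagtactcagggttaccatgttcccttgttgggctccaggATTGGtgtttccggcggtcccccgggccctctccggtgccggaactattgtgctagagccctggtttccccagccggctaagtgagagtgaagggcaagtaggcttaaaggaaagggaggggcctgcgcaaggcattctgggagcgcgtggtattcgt
Snrpe, chr1:133610281-133610480, minus strand: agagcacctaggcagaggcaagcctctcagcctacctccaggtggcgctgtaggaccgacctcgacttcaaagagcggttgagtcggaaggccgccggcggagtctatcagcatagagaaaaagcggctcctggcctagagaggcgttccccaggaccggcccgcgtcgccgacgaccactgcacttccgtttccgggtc
Snrpf, chr10:93589659-93589858, minus strand: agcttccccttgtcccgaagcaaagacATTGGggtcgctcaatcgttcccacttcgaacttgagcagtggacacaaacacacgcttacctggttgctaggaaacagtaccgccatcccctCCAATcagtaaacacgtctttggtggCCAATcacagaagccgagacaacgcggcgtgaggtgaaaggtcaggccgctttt
Snrpg, chr6:86371340-86371539, plus strand: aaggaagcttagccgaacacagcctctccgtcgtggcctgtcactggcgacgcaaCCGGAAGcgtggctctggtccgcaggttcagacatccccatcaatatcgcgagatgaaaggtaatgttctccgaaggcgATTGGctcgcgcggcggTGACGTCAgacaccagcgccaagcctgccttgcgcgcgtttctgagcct
Snrpc, chr17:27839887-27840086, plus strand: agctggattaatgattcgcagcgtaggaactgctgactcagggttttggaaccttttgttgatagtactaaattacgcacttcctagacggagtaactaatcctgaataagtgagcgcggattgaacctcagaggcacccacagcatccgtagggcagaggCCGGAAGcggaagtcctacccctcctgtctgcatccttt
Srsf10, chr4:135855871-135856070, plus strand: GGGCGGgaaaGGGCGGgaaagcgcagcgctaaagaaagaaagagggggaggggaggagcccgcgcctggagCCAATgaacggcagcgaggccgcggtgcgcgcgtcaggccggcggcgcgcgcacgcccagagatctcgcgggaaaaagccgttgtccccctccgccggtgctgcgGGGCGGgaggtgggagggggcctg
Snrpg held the ETS-type letters, a CCAAT box on the other strand and the cAMP-response letters. Snrpc held CCGGAAG alone, Snrpd3 held CCAAT once, Snrpf held it 3 times, and Snrpe held none of the 7. Srsf10 held GGGCGG, the letters bound by Sp1, 3 times and CCAAT once.

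Of the 47 members, 42 had such a window in the RefSeq table. Their median GC content was 61.2%, against 53% for the 27025 genes in the table, which include many that are not protein-coding. CCGGAAG occurred in 12 of the 42 windows (28.6%), against 6.45% of all windows. It was found in 5 of 7 SF3 windows, 3 of 8 snRNP windows, 2 of 10 SR windows and 2 of 17 hnRNP windows. GGGCGG occurred in 57.1% of member windows and 31.3% of all, and was found in 9 of the 10 SR protein windows. CCAAT occurred in 45.2% and 30%. The others were about as frequent in members as in the table or less so: TATAAA in 7.14% and 10.6%, AGATAA (the GATA factor letters) in 7.14% and 7.98%, CACGTG in 2.38% and 5.28%, and TGACGTCA in 2.38% and 1.55%. These matches describe letters in a window and are not evidence of binding, and GC-rich letters occur more often in GC-rich windows.

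By fraction mean as deposited, 26 of 47 peaked in preCFUE, 12 in preGM, 4 in MkP, 3 in preMegE and 2 in CLP. The lowest mean lay in CLP for 25 genes and in MkP for 11. After quantile normalization of the arrays, 17 of the 47 peaked in preCFUE and 19 were lowest in CLP. Among all genes with a mean above 32, 36.6% peaked in preCFUE and 46.1% were lowest in CLP, against 55.3% and 53.2% of members. The moderated F test over all fractions called 20 of 47 members (42.6%), against 35% of all genes tested and 57.7% of genes with a mean above 32. The share of members called therefore lay between the shares of those backgrounds. By family, the F test called 8 of 9 snRNP genes, 4 of 9 SF3 genes, 6 of 19 hnRNP genes and 2 of 10 SR genes. The spread between the highest and lowest fraction mean was modest, with a median ratio of 1.72 over members (1.19 to 6.08, the highest for Hnrnpll).

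**Figure D1:**
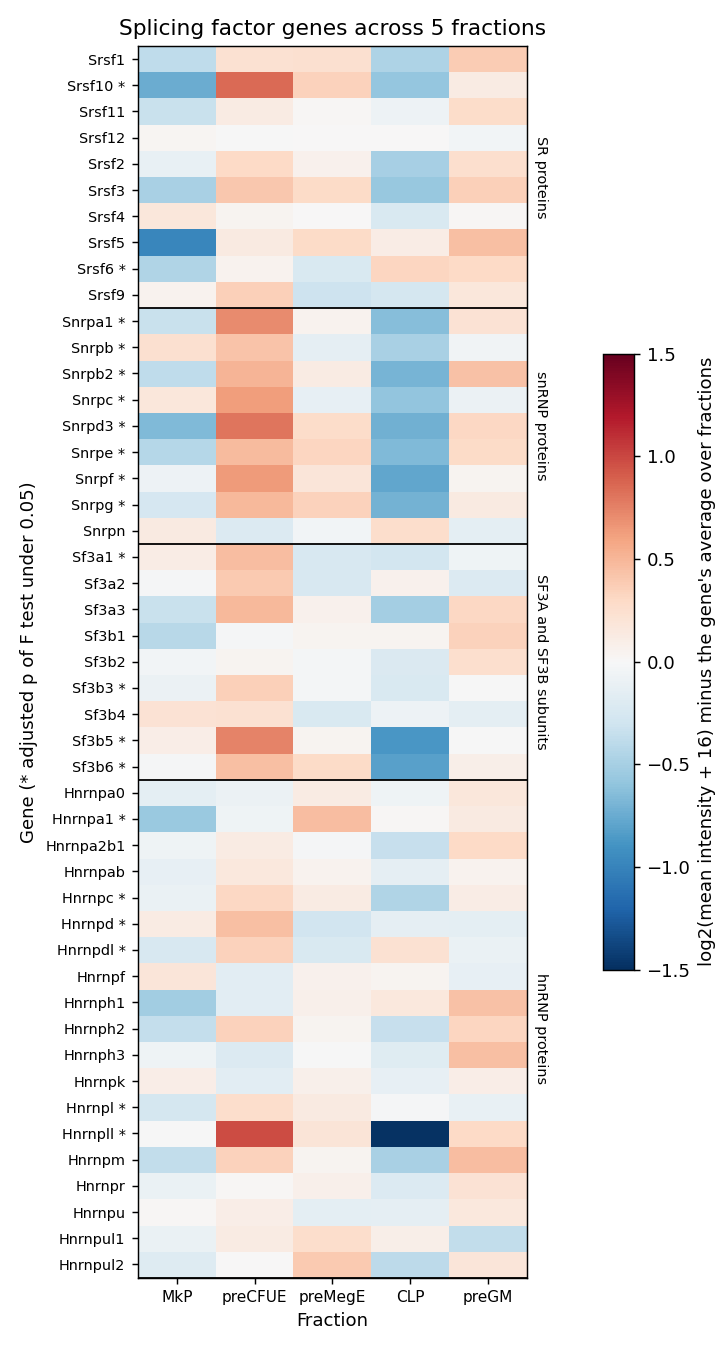
Heat map of the 47 genes (rows, grouped by family) in the 5 fractions (columns). Colour gives log2(mean intensity + 16) minus the gene's average over fractions, and an asterisk marks genes called by the F test. Red in the preCFUE column and blue in the CLP column run through 8 of the 9 snRNP genes, while the SR and hnRNP families are mixed.

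The snRNP genes had the most uniform pattern of the 4 families: 8 of the 9 (all but Snrpn) peaked in preCFUE and were lowest in CLP, and all 8 were called by the F test. After quantile normalization of the arrays, 7 of the 9 still peaked in preCFUE, 8 were lowest in CLP, and 6 were called. The ring is not fully covered, as Snrpd1 and Snrpd2 were not among the members. Of its genes in the set, Snrpg, Snrpe and Snrpb had the strongest signals, but intensities of different probe sets do not rank transcripts.

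Snrpg (SmG) had 3939, 3619 and 3754 in MkP, 6238, 5883 and 6812 in preCFUE, 5699, 5541, 5037, 6136 and 6119.6 in preMegE, 1922, 4599.7 and 1694 in CLP and 6123, 4996 and 3721 in preGM (F test adjusted p = 0.00666). All MkP arrays lay below all preCFUE and preMegE arrays, and CLP replicate 2 lay within the preGM range while the other CLP arrays lay below it. Snrpe (SmE) had 2506, 2369 and 2024 in MkP, 4613, 3564 and 4811 in preCFUE, 3992, 3903, 2709.6, 4152 and 4716 in preMegE, 1383, 3198 and 1280.0 in CLP and 4936, 4131 and 2253 in preGM (adjusted p = 0.0236). Its MkP arrays were again all below those of preCFUE and preMegE. Snrpe is given, outside the rule for named genes, as a further gene of the ring.

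Snrpd3 (SmD3) was lowest in MkP and CLP, with 334, 481 and 297 in MkP, 1448, 860.0 and 842 in preCFUE, 919, 544, 649, 769 and 732 in preMegE, 211, 661 and 193 in CLP and 971, 848 and 413 in preGM (adjusted p = 0.0183). The 3 MkP values stood below every preCFUE and preMegE value. Snrpf (SmF) had 633, 629 and 508 in MkP, 973, 694 and 1261 in preCFUE, 592, 623, 592, 789.5 and 949.7 in preMegE, 339, 459 and 270.2 in CLP and 643, 707 and 576 in preGM (adjusted p = 0.00323). Its 3 CLP arrays were the only ones of the 17 under 500, and none reached a preGM array. Snrpb (SmB) differed from the ring members given above in MkP, where it had 3231, 3094 and 2786, against 3271, 3261 and 3837 in preCFUE, 2058, 2041, 2837, 2237 and 2543 in preMegE, 1735, 2132 and 1645 in CLP and 2687, 2629.6 and 2131 in preGM (adjusted p = 0.00106). The MkP arrays of Snrpb overlapped the highest preMegE array and lay just under the preCFUE arrays.

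The proteins specific to a single snRNP shared the highest (preCFUE) and the lowest (CLP) fraction mean, with the other fractions in different orders. Snrpa1, a U2 protein, had 704, 677 and 664 in MkP, 1698, 1271 and 1299 in preCFUE, 916, 647, 907, 1034 and 965 in preMegE, 447, 964 and 231 in CLP and 1112, 1106 and 797 in preGM (adjusted p = 0.0223). The preCFUE arrays of Snrpa1 stood above all others. Snrpb2, its partner in U2, averaged 227 ± 53.2 in MkP, 435 ± 119 in preCFUE, 327 ± 70.3 in preMegE, 179 ± 132 in CLP and 413 ± 154 in preGM, and only just passed the F test (adjusted p = 0.049). Snrpc, a U1 protein that helps recognise the 5-prime splice site, had 491, 462 and 383 in MkP, 559.6, 626 and 673 in preCFUE, 363, 325, 372, 389 and 367 in preMegE, 233, 302 and 237 in CLP and 447, 403 and 267 in preGM (adjusted p = 0.000447). All 3 preCFUE arrays of Snrpc exceeded every other array. Snrpn, a relative of Snrpb best known from brain, was dim (29.5 ± 5.64 in MkP, 19.9 ± 2.37 in preCFUE, 24.3 ± 5.02 in preMegE, 33.8 ± 9.09 in CLP and 21.6 ± 1.88 in preGM) and missed the F test (adjusted p = 0.0684).

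**Figure D2:**
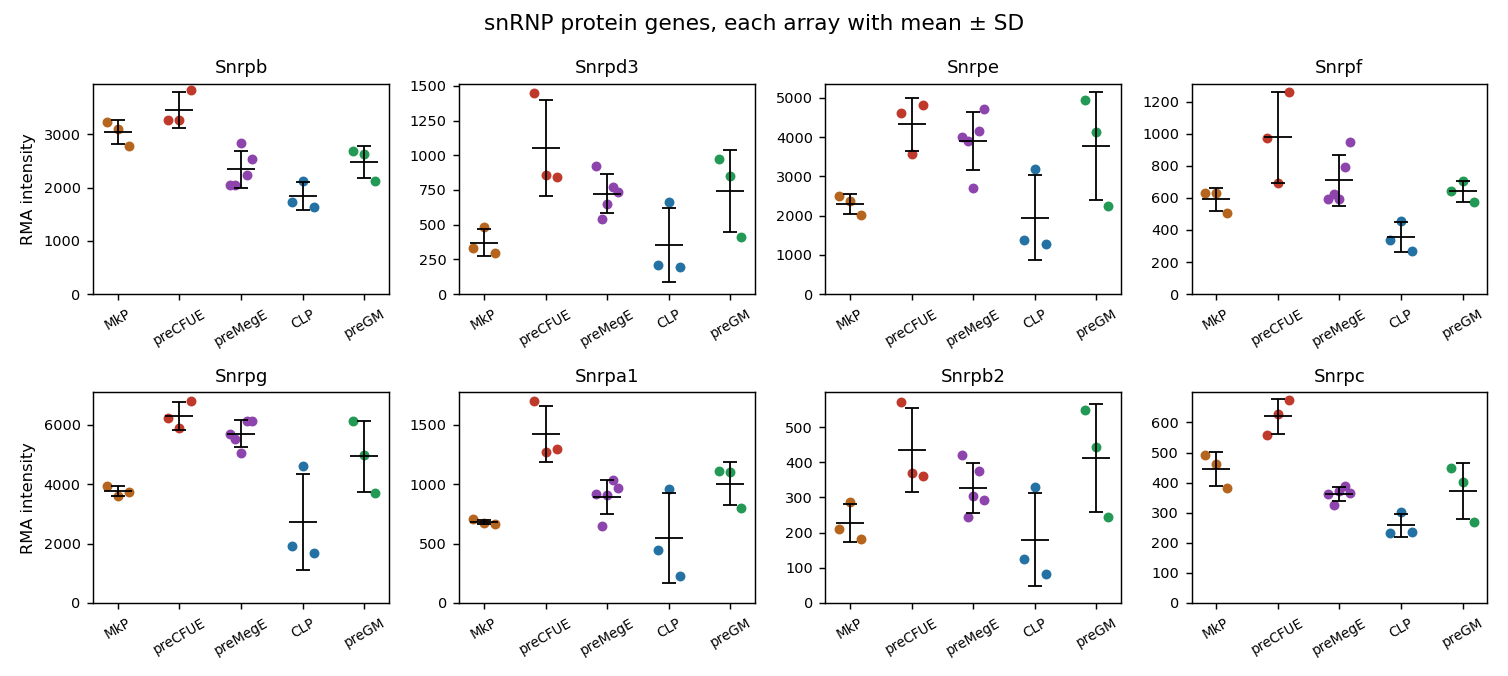
RMA intensity (linear axis from 0) of the 8 brighter snRNP genes on each of the 17 arrays, by fraction; each dot is an array, and bars give mean ± SD. In every panel preCFUE has the highest mean and CLP the lowest, and 1 CLP array (replicate 2) stands above the other 2.

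Among the SF3 genes, 7 of 9 peaked in preCFUE and 6 were lowest in CLP, yet only 4 passed the F test. Sf3a1, a subunit of SF3A, had 238, 283 and 218 in MkP, 279, 363 and 308 in preCFUE, 212, 148, 232, 167 and 189 in preMegE, 159, 200.1 and 192 in CLP and 200.1, 198 and 249 in preGM (adjusted p = 0.00694). Its preCFUE arrays all exceeded its preMegE arrays. A second, dimmer Sf3a1 probe set was highest in CLP by mean (85.4), with 47.4 in preCFUE and 43.0 in preMegE. Sf3b6, a subunit of SF3B, had 1030.5, 1173 and 809 in MkP, 1538, 1161 and 1468 in preCFUE, 1248, 1094, 1093, 1475 and 1321 in preMegE, 522, 841 and 352 in CLP and 1331, 1179 and 738 in preGM (adjusted p = 0.0083). CLP replicate 2 of Sf3b6 lay among the preGM values and the other CLP arrays below them. Sf3b3 averaged 514 ± 19.3 in MkP, 707 ± 94.2 in preCFUE, 536 ± 76.8 in preMegE, 465 ± 43.9 in CLP and 545 ± 70.7 in preGM (adjusted p = 0.0284), and Sf3b5 also passed (adjusted p = 0.0362). Sf3b1, the large scaffold subunit that clamps the branch helix, averaged 1233 ± 239.9 in MkP, 1632 ± 272 in preCFUE, 1702 ± 297 in preMegE, 1703 ± 697 in CLP and 2093 ± 37.7 in preGM and did not pass (adjusted p = 0.141). The bright Sf3b2 and Sf3a2 did not pass either (adjusted p = 0.259 and 0.237), nor did Sf3a3 and Sf3b4 (0.202 and 0.311).

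Among the SR protein genes, Srsf10 and Srsf6 passed the F test, and they differed in where they were high. Srsf10, which can repress splicing when dephosphorylated, had 89.2, 112 and 106 in MkP, 387, 290.1 and 345 in preCFUE, 269.8, 177, 245, 252 and 232 in preMegE, 90.6, 180.3 and 78.5 in CLP and 262, 237 and 102 in preGM (adjusted p = 0.00281). All MkP arrays lay below all preMegE arrays, which in turn lay below all preCFUE arrays. Srsf6 had 684, 808 and 559 in MkP, 1007, 1000.0 and 924 in preCFUE, 825, 519.6, 1042, 894 and 723 in preMegE, 1053, 1166 and 1309.8 in CLP and 1103, 1171 and 1211 in preGM (adjusted p = 0.0127). Unlike most members, Srsf6 was highest in CLP and preGM, where every array exceeded every array of the other 3 fractions. One of its other probe sets had another order, with means of 454 in MkP, 1055 in preCFUE, 999.8 in preMegE, 814 in CLP and 939 in preGM.

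Srsf5 narrowly missed the F test (adjusted p = 0.0632), with 289, 426 and 267 in MkP, 1055, 568 and 552 in preCFUE, 1132, 544, 1076, 730.3 and 559 in preMegE, 412, 1175 and 547 in CLP and 1172, 919.9 and 629.8 in preGM. Its MkP arrays were below all preCFUE and preMegE arrays. The brightest SR genes that did not pass were Srsf1, the founding member of the family (adjusted p = 0.0901), and Srsf3, a small relative of it (0.0897). Srsf1 showed the split among CLP arrays plainly, with 955, 3868 and 1003 in CLP, against 3142, 3696 and 3698 in preGM. Srsf3 had 507, 1971 and 589 in CLP and 2714, 2112 and 1049.6 in preGM. Srsf2, Srsf4, Srsf9, Srsf11 and the very dim Srsf12 had adjusted p-values from 0.112 to 0.832.

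Among the hnRNP genes, the 6 that passed the F test were Hnrnpll, Hnrnpa1, Hnrnpd, Hnrnpc, Hnrnpl and Hnrnpdl. All but Hnrnpa1 had their highest mean in preCFUE, and the lowest lay in CLP for Hnrnpll and Hnrnpc, in MkP for Hnrnpa1, Hnrnpl and Hnrnpdl, and in preMegE for Hnrnpd. Hnrnpll, the CD45 splicing regulator, had 344, 578 and 253 in MkP, 933, 736 and 708 in preCFUE, 542, 358, 534, 482 and 347 in preMegE, 112, 184 and 95.0 in CLP and 538, 591 and 337 in preGM (adjusted p = 0.000204). All 3 CLP arrays, replicate 2 included, were below every other array of the study. Hnrnpa1, a frequent exon repressor, had 541, 575 and 571 in MkP, 743, 763 and 894 in preCFUE, 1061, 935, 1399, 1124 and 1285 in preMegE, 738, 1046 and 754 in CLP and 992, 891 and 883 in preGM (adjusted p = 0.000539). Hnrnpa1 was highest in preMegE, and its MkP arrays lay below all others.

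Hnrnpd, which also binds AU-rich elements and affects mRNA decay, had 1692, 1699 and 1769 in MkP, 2033, 2207 and 2254 in preCFUE, 1376, 1092, 1241, 1346 and 1412 in preMegE, 1544, 1619 and 1134 in CLP and 1380.2, 1557 and 1327 in preGM (adjusted p = 0.00109). The 3 preCFUE arrays of Hnrnpd exceeded all others, followed by those of MkP. A second, dimmer Hnrnpd probe set was highest in preGM by mean (94.8), with 47.3 in preCFUE. Hnrnpdl, a close relative of Hnrnpd, averaged 3303 ± 240.0 in MkP, 4962 ± 422 in preCFUE, 3342 ± 764 in preMegE, 4578 ± 1168 in CLP and 3640.2 ± 361 in preGM (adjusted p = 0.0497), with CLP above preGM by mean. Most other Hnrnpdl probe sets had CLP below preGM by mean, for example 277 in CLP and 507 in preGM for a probe set lowest in CLP. Hnrnpc, which binds uridine tracts in nascent RNA, averaged 3249.8 ± 108 in MkP, 4329 ± 148 in preCFUE, 3802 ± 315 in preMegE, 2540.3 ± 895 in CLP and 3760.2 ± 352 in preGM (adjusted p = 0.0167). Hnrnpl, the nearest relative of Hnrnpll, was dim, with 23.2 ± 3.59 in MkP, 40.5 ± 8.56 in preCFUE, 35.8 ± 3.24 in preMegE, 30.3 ± 6.08 in CLP and 27.6 ± 3.69 in preGM (adjusted p = 0.017).

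The remaining 13 hnRNP genes did not pass, among them the brightest members of the whole set, Hnrnpk (adjusted p = 0.583) and Hnrnpab (0.602). Hnrnpk averaged 5732 ± 334 in MkP, 4769.6 ± 700.3 in preCFUE, 5632 ± 529 in preMegE, 4902 ± 1940.5 in CLP and 5705 ± 649 in preGM. Its fraction means all lay between its lowest and highest CLP array. A dimmer Hnrnpk probe set was highest in preCFUE (1657) and lowest in CLP (949) by mean and just missed the F test (adjusted p = 0.0505). Others of this gene were highest in preGM or in MkP. The others in this family (Hnrnpa0, Hnrnpa2b1, Hnrnpf, Hnrnph1, Hnrnph2, Hnrnph3, Hnrnpm, Hnrnpr, Hnrnpu, Hnrnpul1 and Hnrnpul2) had F test adjusted p-values from 0.0716 to 0.563.

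**Figure D3:**
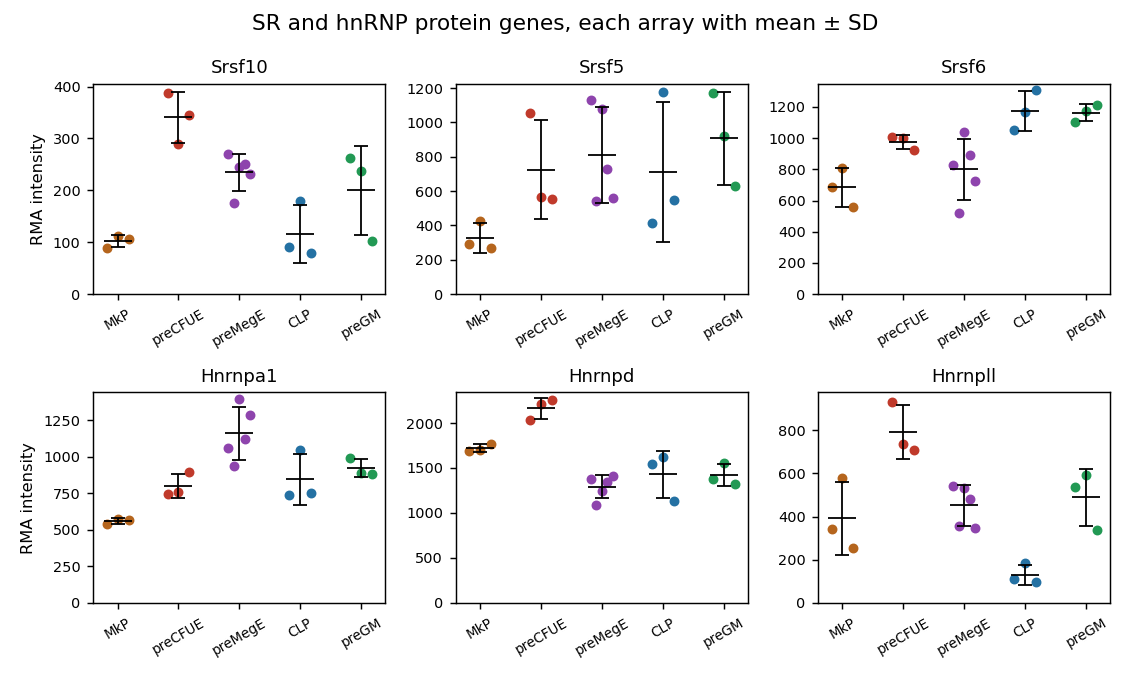
RMA intensity (linear axis from 0) of 3 SR and 3 hnRNP genes on each of the 17 arrays, by fraction; each dot is an array, and bars give mean ± SD. Srsf10 and Hnrnpa1 have their lowest mean in MkP, Hnrnpd is highest in preCFUE, Hnrnpll is lowest on all 3 CLP arrays, and Srsf6 is highest in CLP and preGM.

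The comparison of MkP with preMegE asked how megakaryocyte progenitors differ from the fraction upstream. Of the 47 members, 1 rose and 4 fell in MkP, against 3.98% and 6.38% of all genes, and 5.31% and 12.1% of genes with a mean above 32. Both shares of members were thus near their backgrounds. Srsf5 fell most and differed by -1.22 ± 0.36 (adjusted p = 0.0421), followed by Srsf10 at -1.07 ± 0.27 (0.02). Hnrnpa1 fell to 563 ± 18.4 in MkP, against 1161 ± 184 in preMegE, a difference of -1.01 ± 0.13 (adjusted p = 0.00015). The dim Hnrnpl differed by -0.40 ± 0.11 (adjusted p = 0.0272), with a second, dimmer probe set called in the opposite direction. Hnrnpd was the 1 gene that rose, to 1720.4 ± 42.4 in MkP, against 1293 ± 129 in preMegE (0.41 ± 0.11, adjusted p = 0.0285). The median difference over the 47 members was -0.22, against -0.21 over genes with a mean above 32, and it was 0.04 after quantile normalization, when 4 members rose and 4 fell. Over all genes, 1084 rose and 871 fell after that normalization, against 724 and 1160 as deposited. The calls of Srsf5, Hnrnpd, Hnrnpl and Srsf10 were lost under 10 of 27, 8 of 27, 6 of 26 and 4 of 27 settings. The Hnrnpa1 call remained under every one of 27 alternative settings. Genes of the G2 and M phases rose in the same comparison (11 of 15 called), and 3 of 13 ribosomal protein genes fell. The 4 measured mast cell and basophil markers summed to 71.6 to 91.5 in MkP and to 195 to 257 in preMegE. Of these 4 markers, 1 was called lower in MkP, and their median difference was -0.05. The part of these in the differences was not tested.

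The comparison of preCFUE with preMegE asked the same of early erythroid progenitors. Here 5 members rose and 1 fell, against 4.82% and 3.99% of all genes, or 8.64% and 7.56% of genes with a mean above 32. Snrpc rose to 619.8 ± 57.2 in preCFUE, against 363 ± 23.6 in preMegE (0.74 ± 0.14, adjusted p = 0.0037), and it was called under all 27 alternative settings. Hnrnpd rose to 2164 ± 116 in preCFUE, against 1293 ± 129 in preMegE (0.74 ± 0.11, adjusted p = 0.000576). Both genes had preCFUE arrays clear of all preMegE arrays. Sf3a1 rose by 0.70 ± 0.14 (adjusted p = 0.00499), Snrpb by 0.57 ± 0.12 (0.00957) and Hnrnpdl by 0.59 ± 0.17 (0.0471), the last lost under 19 of 27 settings. Hnrnpa1 fell to 800.0 ± 81.9 in preCFUE, against 1161 ± 184 in preMegE (-0.52 ± 0.13, adjusted p = 0.0229). With the mean over all probe sets of a gene in place of the brightest, the count of calls was 1.

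The median difference between preCFUE and preMegE was 0.44 over the 9 snRNP genes and 0.43 over the 9 SF3 genes, with 8 of 9 positive in each, but 0.14 over SR genes and 0.11 over hnRNP genes. After quantile normalization these medians were 0.32, 0.32, 0.03 and -0.01. Of 54 other spliceosome proteins measured, 9 rose and 1 fell, with a median of 0.33. Among them were Phf5a, a small subunit of SF3B outside the symbol rule, at 1764 ± 121 in preCFUE and 866 ± 140 in preMegE (1.03 ± 0.21, adjusted p = 0.00522), Usp39, a tri-snRNP protein (0.76 ± 0.16, adjusted p = 0.00688), and the tri-snRNP protein Prpf3 (0.60 ± 0.14, adjusted p = 0.0165). In the same comparison 14 of 15 G2 and M phase genes and 8 of 16 S phase genes rose, for example Rrm2, a subunit of ribonucleotide reductase, at 1433 ± 213 in preCFUE and 432 ± 70.4 in preMegE. The 4 measured mast cell and basophil markers summed to 73.1 to 80.4 in preCFUE and to 195 to 257 in preMegE, and the 5 T and NK cell markers to 115 to 138 in preCFUE and to 483 to 634 in preMegE. Of these, limma called 1 of the 4 and 1 of the 5 lower in preCFUE, with median differences of -0.09 and -0.03. The part of cell cycle stage or of other cells in the differences was not tested.

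Direct comparison of MkP with preCFUE, the 2 fractions downstream of preMegE, gave 0 rises and 6 falls among members, against 5.55% and 10.7% of all genes, or 8.03% and 19.8% of genes with a mean above 32. By limma's p before adjustment, under 0.05, 1 member rose and 19 fell, against 1939 and 3282 of all 18193 genes, or 1113 and 3017 of the 9127 with a mean above 32. Srsf10 fell to 103 ± 12.0 in MkP, against 341 ± 48.6 in preCFUE (-1.58 ± 0.30, adjusted p = 0.00247), and kept its call under all 27 settings. Snrpd3 fell to 371 ± 97.0 in MkP, against 1049.8 ± 345 in preCFUE (-1.45 ± 0.41, adjusted p = 0.0283), and Hnrnpll to 392 ± 167, against 792 ± 123 (-1.05 ± 0.30, adjusted p = 0.0276). No MkP array of these 3 genes reached a preCFUE array with the brightest probe set. A second Hnrnpll probe set of similar brightness (mean 432, against 451) differed less. It averaged 533 in MkP, 666 in preCFUE and 458 in preMegE. Hnrnpl (-0.52 ± 0.12), Hnrnpa1 (-0.49 ± 0.15) and Sf3b3 (-0.44 ± 0.13) were the others called, with limma adjusted p-values of 0.00875, 0.0354 and 0.0373. Hnrnpa1 and Sf3b3 each lost the call under 10 of 27 settings, with differences of -0.09 and -0.04 after quantile normalization. Snrpd3 lost it under 5 of 27 and Hnrnpll under 7 of 28, and the smallest Snrpd3 difference was -0.25. Dimmer Snrpd3 probe sets did not fall, with means of 84.3 and 42.3 in MkP and 81.1 and 19.8 in preCFUE. The median difference was -0.43 over members, -0.74 over snRNP genes and -0.57 over the 54 other spliceosome proteins, against -0.27 over genes with a mean above 32. After quantile normalization the members' median was -0.06 with 3 rises and 4 falls, and that of the snRNP genes -0.47. Over all genes, 1300 rose and 1184 fell after quantile normalization, against 1009 and 1950 as deposited.

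Among the 54 other spliceosome proteins, limma called 0 rises (0 also before adjustment) and 15 falls in MkP. Bcas2, a component of the Prp19 complex, had 94.0 ± 7.41 in MkP and 309 ± 55.7 in preCFUE (-1.55 ± 0.27, adjusted p = 0.00112). Phf5a had 713 ± 136 in MkP and 1764 ± 121 in preCFUE (-1.30 ± 0.23, adjusted p = 0.00144). By limma, 0 of 15 G2 and M phase genes were called in this comparison (1 fell by the p before adjustment), and 4 of 16 S phase genes fell. The T and NK cell markers summed to 403 to 538 in MkP and to 115 to 138 in preCFUE. Of these 5 markers, limma called 1 higher in MkP, with a median difference of 0.27. Their part in the differences was not tested. Without the CLP arrays in the fit, an alternative added after seeing the data, the count of members called between MkP and preCFUE was 17, all falls; over all genes, 1262 then rose and 2460 fell.

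The comparison of CLP with preGM set a lymphoid fraction against a myeloid one. By limma, 0 members rose and 9 fell, against 5.07% and 13.3% of all genes. Among genes with a mean above 32, 4.29% rose and 24.6% fell, so the members' share of falls was no higher than that of bright genes. By the p before adjustment, 1 member rose and 22 fell, against 2371 and 4145 of all 18193 genes, or 788 and 3821 of the 9127 with a mean above 32. Of the 9 falls, 6 were snRNP genes, 2 hnRNP genes and 1 an SF3 gene. Hnrnpll fell to 130.3 ± 46.9 in CLP, against 489 ± 134 in preGM (-1.79 ± 0.30, adjusted p = 0.00144), and was called under all 28 alternative settings. A second Hnrnpll probe set averaged 104 in CLP and 384 in preGM. Snrpb2 differed by -1.27 ± 0.39 (adjusted p = 0.0392), Snrpa1 by -1.07 ± 0.35 (0.0477) and Snrpg by -0.97 ± 0.28 (0.0288). All 3 genes had a CLP array inside the preGM range, and their calls were lost under 11, 19 and 9 of 27 settings. Snrpf differed by -0.85 ± 0.23 (0.024), with no overlap, Sf3b6 by -0.95 ± 0.27 (0.0296), Hnrnpc by -0.62 ± 0.18 (0.0316), and Snrpc by -0.49 ± 0.16 (0.0488), the last lost under 22 of 27 settings. Snrpb, the ninth, differed by -0.43 ± 0.14 (0.0461) and was named after its value was seen.

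These counts depended on which CLP and preGM arrays entered the fit. Without preGM replicate 1 or replicate 2, 1 member fell, without preGM replicate 3, 16 fell, and with only the arrays compared, 1 fell. CLP replicates 1 and 3 lay below all preGM arrays for 37 and 38 of the 47 members, whereas replicate 2 did so for 4 and lay above all preGM arrays for 15. Replicate 2 was the highest CLP array for 39 of the 47. Without it, 2 members rose and 26 fell in CLP, while over all genes 2059 rose and 3987 fell (922 and 2418 with it). Without replicate 1 or replicate 3 of CLP, 1 fell in each case. With quantile normalization 1 rose and 1 fell, and the median over members was -0.04 in place of -0.46 (-0.41 over genes with a mean above 32, as deposited); over all genes, 996 rose and 1310 fell after it, against 922 and 2418 without it. The median of the 9 snRNP genes was -0.97 as deposited and -0.57 after quantile normalization, and limma then called 0 of them; the median of SF3 genes changed sign (-0.37 and 0.01), as did that of hnRNP genes (-0.30 and 0.07). With the 3-prime to 5-prime ratio as a covariate, 2 members fell.

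**Figure D4:**
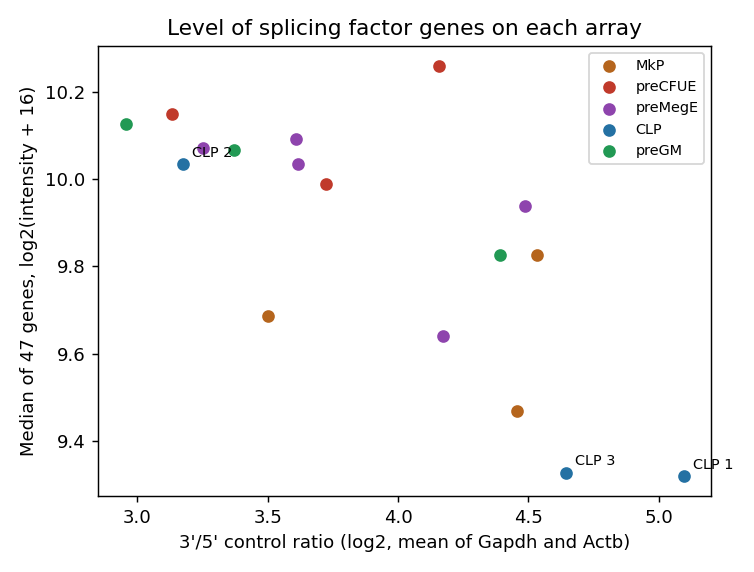
Median of log2(intensity + 16) over the 47 genes on each array (vertical axis) against the log2 ratio of 3-prime to 5-prime control signal (horizontal axis); each dot is an array, coloured by fraction. CLP replicates 1 and 3 have the highest ratios and the lowest medians (9.32 and 9.33), while CLP replicate 2 (10.03) lies among the preGM and preMegE arrays.

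Other measures moved with this comparison. Ribosomal protein genes had a median of -0.79, and 5 of 13 fell in CLP. Falls also numbered 7 among 15 genes of the G2 and M phases and 10 among 54 other spliceosome proteins, of which 1 rose. The ratio of 3-prime to 5-prime signal averaged 4.30 ± 1.00 in CLP and 3.57 ± 0.74 in preGM. Mast cell and basophil markers summed to 80.2 to 82.0 in CLP and to 235 to 332 in preGM, and neutrophil markers were lower in CLP by the sums given above. Of the 4 mast cell and basophil markers, limma called 2 lower in CLP, while 2 had positive differences, and the median was -0.58. Of the 5 neutrophil markers, 0 were called, with a median difference of -1.34. The part of any of these in the falls was not tested.

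Between preMegE and preGM, both within the myeloid compartment, limma called 1 rise and 0 falls among members, against 2.82% and 5.91% of all genes, or 5.12% and 9.35% of genes with a mean above 32. By the p before adjustment, 3 rose and 2 fell, against 1057 and 1900 of all 18193 genes, or 867 and 1482 of the 9127 with a mean above 32. Hnrnpul1, a relative of Hnrnpu, rose to 1609.7 ± 189 in preMegE, against 1035 ± 201 in preGM (0.64 ± 0.18, adjusted p = 0.0447), and no array overlapped. That call was lost under 15 of 27 settings. Srsf6, at 801 ± 196 in preMegE and 1162 ± 54.5 in preGM, did not pass (-0.56 ± 0.17, adjusted p = 0.0635). The median difference was -0.08 over members and 0.03 over snRNP genes.

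**Figure D5:**
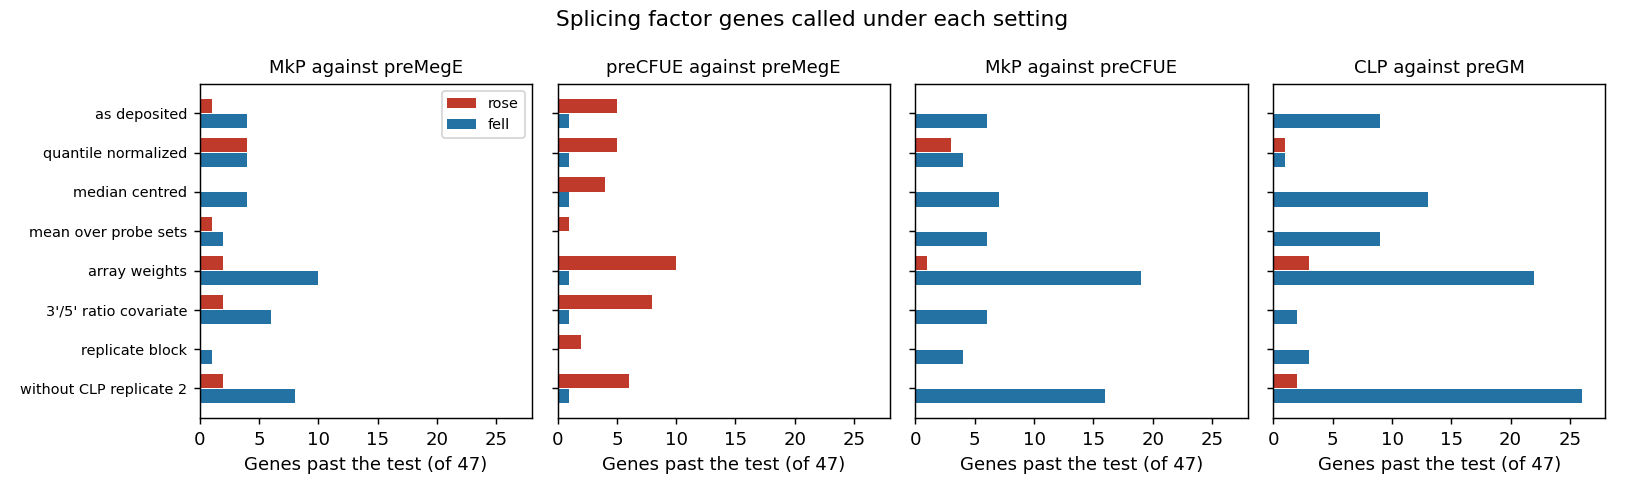
Number of the 47 genes called higher (red) or lower (blue) in the first-named fraction, for 4 comparisons (panels) under 8 settings (rows), on a common axis from 0. Falls in CLP against preGM number 9 as deposited, 26 without CLP replicate 2 and 1 after quantile normalization; rises in preCFUE against preMegE range from 1 to 10.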

How the data were processed

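RNA from 5 sorted mouse bone marrow fractions was hybridised to 17 Affymetrix arrays. The deposited values are RMA intensity values on a linear scale, per the design text and the submitters' processing notes; the design text describes a second in vitro transcription round before labelling, and the RMA version is not given in the sources used here. The design text also names dChip with a filter on SD over mean, which was tried as an alternative. No background level per probe set was used, 47.3% of values lay under 16, and precision is limited by the small number of arrays.

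Of 45101 probe sets, 34958 had 1 gene symbol in the platform annotation, 932 had several and 9211 were not listed; 34754 of the 34958 were found in RefSeq (GRCm38.p6), and 0 symbols changed. Control probe sets were left out. The brightest probe set stood for each gene. All 17 arrays entered 1 limma model (limma 3.58.1, R 4.3.3, lmFit and eBayes, a term per fraction, 12 residual degrees of freedom) on log2(intensity + 16), with 5 comparisons and a moderated F test, adjusted over 18193 genes. The procedure was tested on simulated data whose noise was independent between genes and arrays. Effects shared over an array were not simulated. Promoter windows came from RefSeq, and motifs and plots were made in Python 3.11.15 with matplotlib 3.10.9.

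The members and gene lists were chosen with earlier results of these data known. Named were the 8 largest rises and 8 largest falls per comparison among members called, the 3 smallest F test p-values and the 2 brightest genes not called per family, and the 4 smallest F test p-values of each other list. Alternatives were other pseudocounts (1 and 64), quantile normalization, median centring, the mean over probe sets, filters on dim or steady genes, array weights, a replicate block, the 3-prime to 5-prime ratio as a covariate, only the arrays compared, and leaving out each array; a fit without the CLP fraction was added after seeing the data. The added 16 understates the change of dim genes.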

Additional observations from a re-analysis of the deposited data

How the results depend on the processing

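The count of members called by the F test was 20, and it was 16 to 23 under pseudocounts of 1 and 64, both scalings, the mean over probe sets, the filter on dim genes and the covariate. It was 37 with array weights, 11 with the replicate block and 1 with the filter on SD over mean, which left 1 member to test. Leaving out an array gave 13 (without CLP replicate 1) to 31 (without CLP replicate 2). For MkP against preMegE (5 calls), quantile normalization gave 8, the mean over probe sets 3, the filter on a mean above 32 gave 3, the SD over mean filter 0, array weights 12, the covariate 8, only the arrays compared 12, and the fit without the CLP fraction, added after seeing the data, 8. Leaving out an array gave 1 (MkP replicate 1 or 3) to 10 (CLP replicate 2), with 3 without preMegE replicate 1. For preCFUE against preMegE (6 calls), the mean over probe sets gave 1, the SD over mean filter 1 and array weights 11, and leaving out an array gave 4 to 8. For MkP against preCFUE (6 calls), the dim filter gave 10, the SD over mean filter 1, array weights 20, only the arrays compared 16, and the fit without the CLP fraction 17. Leaving out an array gave 2 (MkP replicate 1 or 3, or preCFUE replicate 1) to 16 (CLP replicate 2), with 12 without CLP replicate 3 and 3 without preCFUE replicate 3. For CLP against preGM (9 calls), quantile normalization gave 2, the dim filter 15, the SD over mean filter 1, array weights 25, the covariate 2 and only the arrays compared 1. Leaving out an array gave 1 (CLP replicate 1 or 3, preGM replicate 1 or 2) to 28 (CLP replicate 2), with 16 without preGM replicate 3 and 5 without preMegE replicate 4 or 5 or MkP replicate 1. The 1 call of preMegE against preGM became 0 with a pseudocount of 64 or the SD over mean filter, 2 with the mean over probe sets and 5 with array weights, and leaving out an array gave 0 to 1. It was 0 without CLP replicate 3, preGM replicates 1 and 2, preMegE replicates 1, 2, 4 and 5, any MkP replicate, or preCFUE replicate 3. The causes were not tested. Of the 26 named member differences, 4 kept their call in every setting, and 0 reversed. The rest of the 69 named results were F tests, which have no direction and cannot reverse. Same-numbered arrays were no more alike than others: their deviations correlated from -0.543 to 0.508, over 0.1 in 11 of 30 pairs. Differently numbered arrays of different fractions gave -0.602 to 0.595, over 0.1 in 32 of 84 pairs. Whether numbers mark shared sorts or animals is not stated in the labels, and these correlations cannot settle it. The replicate block gave 0 calls for preMegE against preGM, 1 for MkP against preMegE, 2 for preCFUE against preMegE and 3 for CLP against preGM.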

Other observations

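Of 29 other regulators of splicing measured, the F test called 8 (27.6%), a smaller share than the 35% of all genes and the 57.7% of genes with a mean above 32. Celf2, an RNA-binding protein of the CELF family, averaged 2143 ± 305 in MkP and 685 ± 152 in preCFUE (1.64 ± 0.30, limma adjusted p = 0.00182). Mbnl2, a muscleblind protein, averaged 356 ± 40.7 in MkP and 141 ± 39.2 in preCFUE (1.27 ± 0.22, adjusted p = 0.00114). Both therefore ran opposite to the snRNP genes in that comparison. Most of the 29 regulators did not, with 20 lower and 9 higher in MkP and a median difference of -0.16. By limma, 3 of the 29 were called higher and 1 lower, against 5.55% and 10.7% of all genes. Mbnl3, a relative of Mbnl2, was lower in CLP, at 289 ± 103, than in preGM, at 903 ± 138 (-1.64 ± 0.20, adjusted p = 1.13e-04). Tia1, which binds uridine-rich sequences near weak splice sites, rose to 709.6 ± 98.4 in CLP, against 476 ± 38.8 in preGM (0.55 ± 0.16, adjusted p = 0.031).

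Of the 9 kinases listed as acting on SR proteins or the spliceosome, the F test called 4 (44.4%), a share between those 2 backgrounds. Clk1, a nuclear kinase of SR proteins, fell to 352 ± 87.2 in MkP, against 912 ± 226 in preMegE (-1.32 ± 0.30, adjusted p = 0.0111), and Clk2 to 140.0 ± 12.2, against 261 ± 77.1 (-0.79 ± 0.19, adjusted p = 0.0133). Of the cytoplasmic kinases, Srpk2 fell to 143 ± 46.2 in preCFUE, against 355 ± 103 in preMegE (-1.23 ± 0.34, adjusted p = 0.0382). Srpk1 fell to 330.4 ± 15.5 in MkP, against 550.2 ± 99.8 in preCFUE (-0.70 ± 0.19, adjusted p = 0.0242).

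Probe sets of the same gene did not always move together. For Hnrnpl, a second probe set with a mean of 19.98 rose in MkP against both preMegE (0.28) and preCFUE (0.31), where the brighter one fell. For Srsf2, a second probe set with a mean of 96.7 rose in CLP against preGM (0.59 ± 0.12, limma adjusted p = 0.00693), where the brightest differed by -0.90 and did not pass. A second Hnrnpu probe set with a mean of 74.2 fell in MkP against preMegE (-1.16 ± 0.31, adjusted p = 0.0363), where the brightest differed by 0.16. For genes called with their brightest probe set in CLP against preGM, 12 of 13 other probe sets had the same sign, and 4 were called. For preCFUE against preMegE, 12 of 15 had the same sign, and 0 were called. For MkP against preCFUE, 7 of 10 had the same sign, of which 2 were called, and 1 was called in the opposite direction. For MkP against preMegE, 7 of 8 had the same sign, of which 1 was called, and 1 was called in the opposite direction.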
